A study of Mus musculus with 10 samples.

Results

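The gp130 family comprises cytokines that signal through the shared receptor subunit gp130, the product of Il6st, together with their private receptor subunits. It was taken as 10 mouse genes, chosen by symbol: the receptor subunits Cntfr, Lifr, Il6st, Il6ra, Osmr and Il11ra1 and the cytokines Lif, Osm, Il6 and Ctf1. A named probe set was found for 9 of the 10, among 24704 genes in all, and Il11ra1 was not analysed here. The set was put together with the diet difference of these arrays known. The differences between diets in these 9 genes are therefore described by their values and errors and are not tested.

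Signals were measured on 10 Affymetrix arrays, each loaded with RNA of CD146-selected liver cells pooled from 3 female C57BL/6N mice. CD146 selection is meant to enrich liver sinusoidal endothelial cells (LSEC), the fenestrated lining of the liver's smallest vessels. The 5 CDAA pools (CDAA 1 to CDAA 5) came from mice that ate a CDAA diet, with 31% of calories as fat and 1% cholesterol, and the 5 Std pools (Std 1 to Std 5) from mice on a control diet. In liver research CDAA is the usual abbreviation of a choline-deficient, amino acid-defined diet, a model of fatty liver with scarring. Feeding began at 10 weeks of age and lasted 10 weeks per the titles and the growth protocol, although 1 label field gives 10 days. All pools carry the same strain and sex, and no sample is labelled with the Gata4 deletion that the design text of the series mentions. Values are log2 signals, so a difference of 1 is a doubling of signal, and each difference is CDAA minus Std with its standard error (SE) from limma, a linear model fitted over all genes.

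Each gp130 cytokine binds a receptor complex on the target cell, and gp130 carries the signal inward through Janus kinases (JAKs) to transcription factors of the STAT family, mainly STAT3. LIFR pairs with gp130 for leukaemia inhibitory factor, cardiotrophin 1 and, together with CNTFR, ciliary neurotrophic factor. OSMR pairs with gp130 for oncostatin M. In the liver the pathway is best known for driving the acute phase response of hepatocytes, and SOCS3 is its main feedback inhibitor.

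The isolates were checked for the labelled cell type and for others. A marker is said to have risen or fallen where its limma adjusted p was at most 0.05. Of all 24704 genes, 7.49% rose and 9.13% fell by this test. All 15 LSEC markers lay above the level of genes taken as not expressed, which was the 95th percentile of 1400 olfactory, vomeronasal and taste receptor genes and lay between 3.28 and 3.56 across arrays. The mean over these 15 markers was 10.36 to 11.35 in CDAA pools and 11.74 to 11.88 in Std pools. Of the 15, 12 fell, most of all Cd209b (-2.34) and Ehd3 (-1.59), and 1, Cd36, rose (0.41). The mean of 12 pan-endothelial markers was 10.06 to 11.14 in CDAA pools and 11.37 to 11.52 in Std pools, with CDAA 3 and CDAA 1 lowest, and 9 of the 12 fell. Markers of other cells had signal too. Recruited macrophage markers averaged 7.62 to 9.16 in CDAA pools and 4.83 to 5.97 in Std pools (8 of 10 rose), and cholangiocyte markers 7.22 to 8.12 and 4.21 to 5.37 (8 of 8 rose). Stellate cell and fibroblast markers averaged 6.60 to 7.78 in CDAA pools and 5.89 to 6.52 in Std pools (6 of 14 rose and 2 fell), and hepatocyte markers 6.32 to 7.43 and 6.18 to 6.70 (3 of 11 rose and 2 fell). Kupffer cell markers averaged 8.50 to 9.51 in CDAA pools and 8.76 to 9.84 in Std pools (5 of 11 fell). None of 8 neutrophil markers, 10 T and NK cell markers or 6 mesothelial markers passed the test, and 3 of 7 B and plasma cell markers rose. Std 3 stood apart in the neutrophil markers, with a mean of 9.57 against 3.84 to 4.17 in the other Std pools and 5.16 to 6.32 in CDAA pools. Std 5 was highest in the T and NK cell markers, at 5.75 against 4.22 to 4.69 in the other Std pools and 4.65 to 5.08 in CDAA pools. In such mixed isolates, fewer cells of a type and less RNA per cell cannot be told apart.

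The receptor subunits Cntfr, Lifr, Osmr and Il6st had lower mean signals in CDAA pools than in Std pools, and for the first 3 the diets did not overlap. The cytokine Ctf1 was somewhat higher, Osm was higher than in 4 of the 5 Std pools, and the 95% intervals of Osm, Il6ra, Lif and Il6 included 0. Of the 9 genes, 5 lay past an adjusted p of 0.05 in limma, against 16.6% of all 24704 genes. The 4 that were lower stand beside 9.13% of all genes, and the 1 that was higher beside 7.49%. In 3 of the 9 genes all CDAA pools lay below all Std pools, beside 7.73% of all genes, and in 0 of the 9 all lay above, beside 6.16%. Nothing is read from these counts, because the genes were chosen with this contrast known. The median difference over the 9 genes was -0.07, beside -0.02 over all genes.

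**Figure D1:**
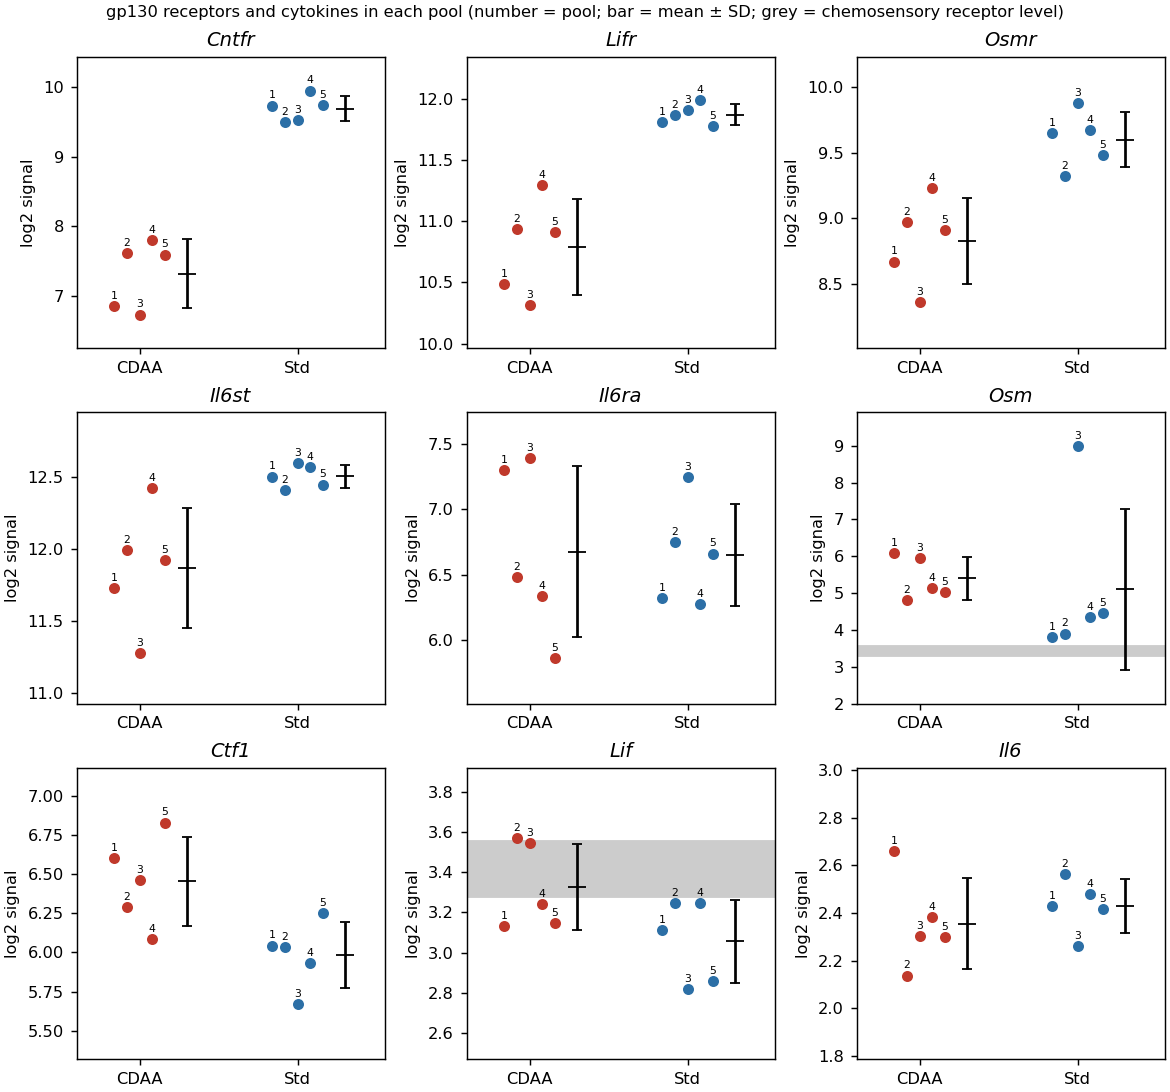
Log2 signal (vertical axis, scaled separately for each gene) of the 9 measured gp130 receptor and cytokine genes in 5 CDAA pools and 5 Std pools. Numbered points are pools, black bars are the mean ± SD, and grey bands mark the range of the 95th percentile of chemosensory receptor genes. For Cntfr, Lifr and Osmr the CDAA points all lie below the Std points, and Osm stands at 8.99 in Std 3.

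The sequences just before the transcription starts of the 4 lower receptor genes are shown because these genes were lower together. RefSeq promoter sequences on GRCm38.p6 were found for 9 of the 10 family genes, and Osm was the exception. Each sequence below is the 250 bases before the most upstream listed start, written 5′ to 3′ in the direction of the gene, and capitals mark GC boxes, the letters GGGCGG or their reverse complement.
Cntfr (chr4:41696038-41696287, minus strand): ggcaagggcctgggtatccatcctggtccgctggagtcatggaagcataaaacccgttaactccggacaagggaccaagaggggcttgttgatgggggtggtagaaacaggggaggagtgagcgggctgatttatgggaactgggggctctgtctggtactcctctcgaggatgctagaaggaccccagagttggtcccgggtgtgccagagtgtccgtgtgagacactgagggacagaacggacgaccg
Lifr (chr15:7129322-7129571, plus strand): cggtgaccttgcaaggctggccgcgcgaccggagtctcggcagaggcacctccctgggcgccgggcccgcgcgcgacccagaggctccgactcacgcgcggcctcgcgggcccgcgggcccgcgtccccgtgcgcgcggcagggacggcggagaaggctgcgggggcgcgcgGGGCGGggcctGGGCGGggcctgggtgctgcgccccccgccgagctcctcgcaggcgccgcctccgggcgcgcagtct
Osmr (chr15:6874314-6874563, minus strand): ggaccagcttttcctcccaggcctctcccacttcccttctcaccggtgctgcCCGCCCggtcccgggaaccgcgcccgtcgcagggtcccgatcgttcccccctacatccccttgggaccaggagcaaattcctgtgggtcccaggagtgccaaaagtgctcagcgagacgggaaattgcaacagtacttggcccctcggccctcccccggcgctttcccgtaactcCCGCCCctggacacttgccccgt
Il6st (chr13:112463820-112464069, plus strand): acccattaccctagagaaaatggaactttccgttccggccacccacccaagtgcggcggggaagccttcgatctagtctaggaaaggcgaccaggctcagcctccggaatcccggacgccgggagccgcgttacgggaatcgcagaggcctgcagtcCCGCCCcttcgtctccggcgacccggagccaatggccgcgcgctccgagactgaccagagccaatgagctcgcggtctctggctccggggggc
A GC box was found 2 times before Lifr, 2 times before Osmr, 1 time before Il6st and not before Cntfr, beside 32.7% of 32851 such regions over all genes. G and C made up 58.8% of the bases before Cntfr, 82.4% before Lifr, 66.0% before Osmr and 66.0% before Il6st, beside a median of 52.0% over genes. Searched on both strands in the same 250 bases, the STAT element TTCNNNGAA (7.02% of all regions), the GATA element AGATAA (9.99%), the ETS element CCGGAAG (6.91%), the AP-1 element TGACTCA (4.46%) and the TATA box TATAAA (12.4%) had no match before any of the 4 genes. From 250 bases before to 50 after the starts, 8.30% of all promoters held the STAT element, none of those listed for the family did, and that of Socs3 held it 1 time. A match or its lack describes these letters only. Lifr and Osmr are next to each other on chromosome 15, with 0 protein-coding genes between them in the RefSeq annotation, as are Lif and Osm on chromosome 11.

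Cntfr (probe set 12804_at) encodes the receptor subunit for ciliary neurotrophic factor, which has no part inside the cell and is held to the membrane by a lipid anchor. Its log2 signal was 6.85, 7.62, 6.73, 7.81 and 7.59 in CDAA 1 to CDAA 5, against 9.74, 9.50, 9.54, 9.95 and 9.75 in Std 1 to Std 5. All CDAA pools lay below all Std pools, and CDAA 1 and CDAA 3 were the lowest. The means were 7.32 ± 0.49 in CDAA pools and 9.69 ± 0.18 in Std pools (SD, n = 5 each), a difference of -2.37 ± 0.20 (SE) with a 95% interval of -2.82 to -1.93. The signal was 5.18-fold lower in CDAA pools and remained far above the level of genes taken as not expressed in all 10 pools. Without CDAA 1 and CDAA 3 the difference was -2.02 ± 0.12.

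Lifr (16880_at) encodes the second signalling subunit, which partners gp130. It measured 10.48, 10.93, 10.31, 11.30 and 10.91 in CDAA 1 to CDAA 5, against 11.81, 11.87, 11.91, 11.99 and 11.78 in Std 1 to Std 5. Again the diets did not overlap, and the Std pools lay within a narrow band. Means were 10.79 ± 0.39 in CDAA pools and 11.87 ± 0.08 in Std pools (SD, n = 5 each), a difference of -1.09 ± 0.16 (SE), or 2.12-fold lower signal with CDAA.

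Osmr (18414_at) encodes the oncostatin M receptor subunit. Its signal was 8.67, 8.97, 8.36, 9.23 and 8.91 in CDAA 1 to CDAA 5 and 9.65, 9.32, 9.88, 9.67 and 9.48 in Std 1 to Std 5. The highest CDAA pool, CDAA 4, was just below the lowest Std pool, Std 2. Osmr averaged 8.83 ± 0.33 in CDAA pools and 9.60 ± 0.21 in Std pools (SD, n = 5 each), a difference of -0.77 ± 0.16 (SE).

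Il6st (16195_at), the gene of gp130 itself, measured 11.73, 11.99, 11.28, 12.42 and 11.93 in CDAA 1 to CDAA 5, against 12.51, 12.41, 12.60, 12.57 and 12.45 in Std 1 to Std 5. Here the diets touched, since CDAA 4 lay slightly above Std 2. The difference was -0.64 ± 0.17 (SE), from means of 11.87 ± 0.42 in CDAA pools and 12.51 ± 0.08 in Std pools (SD, n = 5 each). Over the 10 fits that each left out 1 array, Cntfr differed by -2.49 to -2.23 and Lifr by -1.21 to -0.97. Osmr differed by -0.87 to -0.65 and Il6st by -0.78 to -0.49. No support is taken from passing in these fits, because the genes were chosen with this contrast known. Il6st was not past the limma threshold without CDAA 1 (-0.60), Std 1 (-0.64) or Std 4 (-0.62). Without both CDAA 1 and CDAA 3 it was at -0.39 ± 0.13 and not past the threshold.

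CDAA 3, the pool with the lowest pan-endothelial mean, was the lowest pool for each of the 4 receptor genes, and CDAA 1 was next lowest in both respects. Because the pan-endothelial markers moved with the diet, the 4 receptor genes were also set against them within each array, a comparison chosen after the values were seen. Cntfr minus the pan-endothelial mean was -3.60 to -3.21 in CDAA pools and -1.92 to -1.57 in Std pools, so the diets did not overlap and the difference was -1.62 ± 0.18 (SE). For Lifr the same quantity was -0.04 to 0.26 in CDAA pools and 0.32 to 0.54 in Std pools, a difference of -0.33 ± 0.17. For Osmr it was -2.00 to -1.69 in CDAA pools and -2.09 to -1.49 in Std pools, a difference of -0.019 ± 0.18. For Il6st it was 1.02 to 1.28 in CDAA pools and 1.00 to 1.23 in Std pools, a difference of 0.11 ± 0.17. Of the pan-endothelial markers themselves, Flt1 (-1.34) and Robo4 (-1.10) fell by more than Lifr (-1.09), and the rest by less. Relative to the mean of these markers, Cntfr and Lifr lay below their Std ranges in all CDAA pools, whereas Osmr and Il6st overlapped theirs. When that mean entered the fit as a covariate, the differences were -1.54 ± 0.17 for Cntfr, -0.44 ± 0.14 for Lifr, -0.22 ± 0.18 for Osmr and 0.049 ± 0.15 for Il6st (SE). The covariate itself differed between diets without overlap, so it and the diet cannot be fully told apart. The receptor genes were not set against LSEC markers in this way. Of 15 LSEC markers 12 fell and 1 rose, with Cd209b at -2.34 and Ehd3 at -1.59. A fall as large as that of Lifr was thus not particular to it. None of the 15 fell as far as Cntfr (-2.37), though Cd209b came close, and the Kupffer cell marker Timd4 fell further (-3.73).

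**Figure D2:**
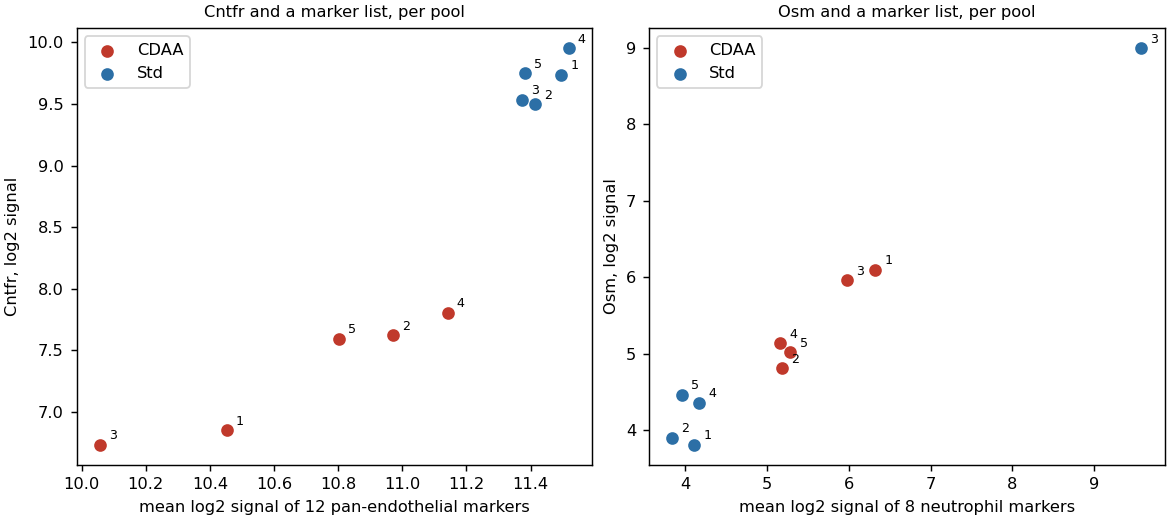
Left, log2 signal of Cntfr against the mean log2 signal of 12 pan-endothelial markers, and right, log2 signal of Osm against the mean of 8 neutrophil markers, for each CDAA and Std pool (numbered points). The CDAA pools form a separate band of Cntfr below the Std pools, and Std 3 is the pool highest in both Osm (8.99) and neutrophil markers (9.57).

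The genes most like Cntfr in how single pools departed from their own diet's mean were found among 11424 genes with signal above the median gene, leaving out predicted and small RNA gene symbols. Over the 10 arrays, the Pearson correlation of these departures with those of Cntfr was 0.99 for Fas, a death receptor, 0.98 for Zcchc14, 0.98 for the ligand-activated transcription factor Ahr, 0.98 for Rsu1 and 0.98 for the netrin receptor Unc5a. These points share arrays and cell mix, and CDAA 1 and CDAA 3 were low for Cntfr. The diet difference of these genes was smaller than that of Cntfr: -0.87 for Fas, -0.79 for Zcchc14, -0.73 for Ahr, -0.24 for Rsu1 and -1.06 for Unc5a. Within the family the same correlation was 0.91 for Lifr, 0.84 for Il6st, 0.77 for Osmr and -0.86 for Il6ra. Il6ra thus tended to be high in pools in which Cntfr was low for their diet.

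Il6ra (16194_at) encodes the interleukin-6 binding subunit, which hepatocytes and several leukocytes carry and which can also act in soluble form. It measured 7.30, 6.48, 7.39, 6.34 and 5.87 in CDAA 1 to CDAA 5, against 6.32, 6.75, 7.25, 6.28 and 6.66 in Std 1 to Std 5. The diets overlapped throughout, and the high pools were CDAA 1, CDAA 3 and Std 3. Means were 6.68 ± 0.65 in CDAA pools and 6.65 ± 0.39 in Std pools (SD, n = 5 each), a difference of 0.02 with a 95% interval of -0.60 to 0.65. CDAA 1, CDAA 3 and Std 3 were also the highest pools of their diets in recruited macrophage markers, at 8.90, 9.16 and 5.97. The same pools were the highest of their diets in neutrophil markers, at 6.32, 5.98 and 9.57. The part of macrophages or neutrophils in the Il6ra signal was not tested. Without CDAA 1 and CDAA 3 the difference was -0.42 ± 0.22 (SE).

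Osm (18413_at) encodes oncostatin M, a cytokine made by neutrophils, macrophages and T cells. Its signal was 6.09, 4.81, 5.96, 5.14 and 5.02 in CDAA 1 to CDAA 5, against 3.81, 3.90, 8.99, 4.36 and 4.46 in Std 1 to Std 5. Every CDAA pool lay above 4 of the Std pools, and Std 3 lay above everything else. The means, 5.40 ± 0.58 in CDAA pools and 5.10 ± 2.19 in Std pools (SD, n = 5 each), gave a difference of 0.30 ± 0.83 (SE). Std 3 alone decided this value. Without it the Std mean was 4.13 ± 0.33 (SD, n = 4), the diets did not overlap, and the difference was 1.27 ± 0.27 (SE). Std 3 also had the highest neutrophil marker mean, and CDAA 1 and CDAA 3, the CDAA pools with most Osm, had the highest neutrophil means of their diet at 6.32 and 5.98. CDAA 1, CDAA 3 and Std 3 were the highest of their diets in recruited macrophage markers too. The part of neutrophils or macrophages in the Osm signal was not tested. The oncostatin M receptor gene Osmr, by contrast, was lower in all CDAA pools with and without Std 3, at -0.70 ± 0.16 without it.

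Ctf1 (13019_at), the gene of cardiotrophin 1, measured 6.61, 6.29, 6.46, 6.08 and 6.83 in CDAA 1 to CDAA 5, against 6.04, 6.04, 5.67, 5.93 and 6.25 in Std 1 to Std 5. CDAA pools were mostly higher, but CDAA 4 lay below Std 5. The difference was 0.47 ± 0.15 (SE), from 6.46 ± 0.29 in CDAA pools and 5.99 ± 0.21 in Std pools (SD, n = 5 each). It ranged over 0.38 to 0.56 in the 10 fits that left out 1 array. It was past the limma threshold in only 2 of them, those without CDAA 4 (0.56) and Std 5 (0.54).

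Lif and Il6 gave little or no signal in these isolates. Lif (16878_at), leukaemia inhibitory factor, ranged over 3.13 to 3.57 in CDAA pools and 2.82 to 3.25 in Std pools, and exceeded the level of genes taken as not expressed in 2 of 10 arrays, both CDAA. Il6 (16193_at), interleukin-6, ranged over 2.14 to 2.66 in CDAA pools and 2.26 to 2.56 in Std pools, and exceeded that level in 0 of 10 arrays. No difference between diets could be measured for either gene at this signal.

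Genes around the family were then tested, in lists made with earlier results of these arrays known. The lists hold further gp130 cytokines and receptors, signal transducers, inhibitors, response genes, acute phase genes and, for comparison, cytokine receptors outside the family. "Rose" and "fell" are used of genes with a limma adjusted p of at most 0.05 over all 24704 genes. Of all these genes 16.6% passed, 7.49% upward and 9.13% downward, and each list count is to be read against those shares; with so few genes a list, none is called particular to its list. Among 11 measured genes of other gp130 cytokines, receptors and sheddases, 1 rose and none fell, with a list median of -0.08, and 2 passed without CDAA 4. The gene that rose was Clcf1 (56708_at), a cytokine that acts through the CNTFR complex. Clcf1 measured 6.28, 5.41, 6.45, 5.24 and 5.68 in CDAA 1 to CDAA 5, against 4.67, 5.16, 4.64, 4.91 and 4.79 in Std 1 to Std 5. It was thus higher in every CDAA pool, most of all in CDAA 1 and CDAA 3, with a rise of 0.98 ± 0.22 (SE, limma adjusted p = 0.00971), 1.97-fold. With the pan-endothelial covariate the estimate was 0.10 and did not pass. Under that covariate only 228 of all 24704 genes passed, and the counts given for it below are to be read against that number. Cntf (12803_at), the cytokine after which CNTFR is named, differed by -0.25, did not pass (limma adjusted p = 0.538) and exceeded the level of genes taken as not expressed in 2 of 10 arrays.

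Of 13 JAK, STAT and adaptor genes, 3 fell and none rose, beside 9.13% of all genes that fell, and the list median was -0.04. Jak1 (16451_at), the kinase most closely tied to gp130, fell by 0.60 ± 0.15 (SE, limma adjusted p = 0.0151), with 10.96 to 11.76 in CDAA pools and 11.93 to 12.09 in Std pools. Jak3, which serves receptors of the common gamma chain, fell by 0.68 ± 0.16, and Stat5b, a transcription factor activated by growth hormone and several cytokines, by 0.67 ± 0.10 (limma adjusted p = 0.00114). In each of the 3 the diets did not overlap. Stat3 (20848_at) was at 9.22 ± 0.06 in CDAA pools and 9.26 ± 0.12 in Std pools (SD, n = 5 each), a difference of -0.04 ± 0.09 (SE, limma adjusted p = 0.84). Its transcript level thus differed by less than the spread between pools. None of the 3 passed under the pan-endothelial covariate, at -0.01 for Jak1, -0.06 for Jak3 and -0.37 for Stat5b.

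Of 15 measured inhibitors of the pathway, 5 fell and none rose, beside 9.13% of all genes that fell, with a list median of -0.19. Under the pan-endothelial covariate 0 of the 15 passed in limma. Socs1 (12703_at), an inhibitor of JAK kinases best known for limiting interferon signals, fell by 0.94 ± 0.18 (SE, limma adjusted p = 0.00362), with 4.50 to 5.20 in CDAA pools and 5.48 to 6.32 in Std pools. Socs5 and Socs7 fell by 0.52 and 0.43, and the STAT inhibitors Pias3 and Pias1 by 0.40 and 0.35. Pias3 (limma adjusted p = 0.0492) passed in 3 of 10 fits without 1 array. Without CDAA 1 and CDAA 3, 2 of the 15 passed, Socs1 and Pias3. Socs3 (12702_at), the feedback inhibitor that gp130 signals induce through STAT3, did not pass (limma adjusted p = 0.796). Its signal was 8.34, 6.75, 7.07, 7.17 and 6.72 in CDAA 1 to CDAA 5, against 8.11, 6.00, 7.65, 6.87 and 6.34 in Std 1 to Std 5, a difference of 0.22 ± 0.41. The spread of Socs3 within each diet was larger than the difference between them. With replicate number as a block, for which the data give a hint described below, the SE of Socs3 was 0.17.

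Of 23 measured genes listed here as responding to STAT3 or oncostatin M, 4 rose and 1 fell, and the list median was 0.29. This stands beside 16.6% of all genes that passed. The response of each gene to these factors was not checked. Vegfa (22339_at), the vascular endothelial growth factor, rose by 1.36 ± 0.20 (SE, limma adjusted p = 0.000908), with 7.25 to 8.09 in CDAA pools and 5.87 to 6.51 in Std pools. Osgin2 rose by 0.64, the AP-1 subunit Fosl2 by 0.51 and the protein cross-linking enzyme Tgm2 by 0.48, each without overlap between diets. The transcription factor Batf fell by 0.50. With replicate number as a block, 10 of the 23 passed. Most of these genes also answer to other signals. None of the 23 passed with the pan-endothelial covariate, with Vegfa at 0.68 and Tgm2 at 0.49.

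In the hepatic acute phase list, 3 of 21 genes rose and 2 fell, beside 16.6% of all genes that passed, and the list median was 0.42. Cp (12870_at), the copper carrier ceruloplasmin, rose by 2.81 ± 0.24 (SE, limma adjusted p = 3.46e-05), with 10.18 to 10.75 in CDAA pools and 6.95 to 8.35 in Std pools. The interleukin-1 antagonist Il1rn rose by 2.28 ± 0.33 and Crp, C-reactive protein, by 2.06 ± 0.28. Lbp, the lipopolysaccharide binding protein, fell by 0.79 and Saa4, a constitutive serum amyloid A, by 0.80. All 5 CDAA values of Saa4 lay below the level of genes taken as not expressed. The count was 9 of 21 both without Std 3 and without CDAA 4, and 8 with replicate number as a block. Cholangiocyte and recruited macrophage markers were higher in all CDAA pools too, and the part of hepatocytes, cholangiocytes and macrophages in these signals was not tested. Cp, at 2.44, was 1 of the 2 genes that passed under the pan-endothelial covariate.

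For comparison, 29 cytokine receptor genes outside the gp130 family were measured, of which 3 rose and 4 fell, beside 16.6% of all genes that passed, with a list median of 0.12. Il7r (16197_at), the interleukin-7 receptor subunit of lymphocytes and some macrophages, rose by 2.65 ± 0.36 (SE, limma adjusted p = 0.000573), and its Std values of 2.65 to 3.11 lay below the level of genes taken as not expressed. Il21r and Csf2ra rose by 1.07 and 0.92, and their diets overlapped. The erythropoietin receptor gene Epor fell by 1.11 ± 0.15 (limma adjusted p = 0.000527) and Il13ra2, a decoy receptor for interleukin-13, by 1.00. Il21r passed in 4 of 10 fits without 1 array, and Csf2ra and Il13ra2 in 3 of 10 each. These 3 genes did not pass without CDAA 1 and CDAA 3, and 3 of the 29 passed there. Under the pan-endothelial covariate 1 of the 29 passed, and the estimates of Il21r (-0.31), Il13ra2 (0.12) and Csf2ra (-0.19) changed sign without passing. Leaving out 1 array gave between 2 genes past the threshold (without Std 2) and 8 (without CDAA 5), with 3 without Std 1 or Std 4 and 4 without CDAA 1, CDAA 3 or Std 5.

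**Figure D3:**
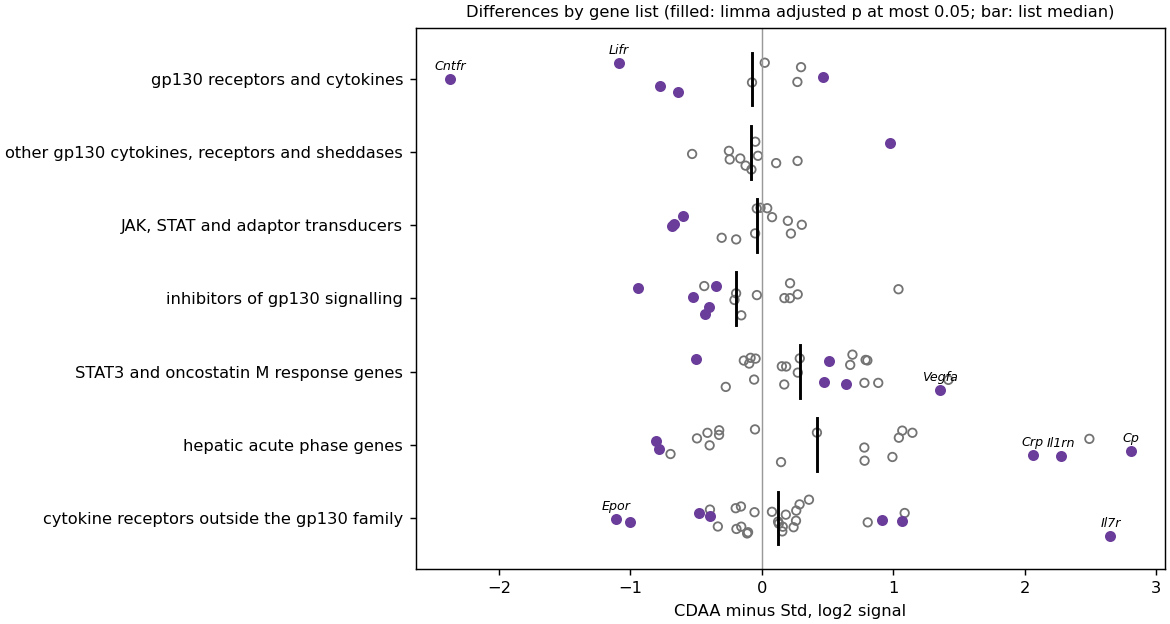
CDAA minus Std difference in log2 signal (horizontal axis) for each measured gene of the gp130 family and of 6 related lists (rows, points spread vertically for legibility). Filled points have a limma adjusted p of at most 0.05, open points do not, and black bars are list medians. Cntfr lies far to the left of the other family genes, and the list medians lie between -0.19 and 0.42.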

How the data were processed

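The deposited table holds log2 values which the authors had put through RMA (robust multi-array averaging), as the submitters' processing notes state. This method corrects background, equalises the arrays' distributions and yields a single value for each probe set. Its version, the array design and the genome build are not given in the sources used here. The median was 3.89 on every array. Of 25428 probe sets, 24705 had 1 gene symbol in the platform annotation, 0 had several and 723 had none. The probe set with the highest mean was kept for each gene, giving 24704.

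CDAA was compared with Std in R 4.3.3 with lmFit and eBayes of limma 3.58.1, as a two-sided test, and p-values over the 24704 genes were adjusted by the Benjamini-Hochberg method, with 0.05 as threshold. Replicates are separate pools of 3 mice, and the p-values therefore rest on differences among pools, not among mice. Of 246 list entries, 13 had no named probe set. The family genes, the lists and the tests were chosen with earlier results of these data known. By rule the text names all family genes, up to 5 genes with the largest change per related list, Socs3, Stat3 and Jak1, and the 5 genes most like Cntfr. Cntf, which the rule does not name, was chosen after its value was seen. The fit was first tested on simulated data. It recovered 17% of genes given a log2 change of 0.5, 86.5% at a change of 1 and 99% at 2. In each simulated set 200 of 24704 genes were changed, far fewer than the 4106 that passed in the data. Fewer changed genes make the adjustment stricter, so these shares do not carry over to the data as they stand. A gene that did not pass may still differ by about 0.5. For arrays, their number limits the precision. Other fits, 21 in all, used a replicate block, other scalings, filters, variance models and covariates, or left out arrays. Centring on the pan-endothelial mean was added after the data were seen.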

Additional observations from a re-analysis of the deposited data

Results flagged for a closer look

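An array was marked when it lay apart from the closest array of the same diet by more than 0.71 of the range of the 5 arrays, Dixon's value for 5. Among 70 groups (35 genes, each in both diets), 5 were marked, and chance marks about 1 in 20 groups. Osm in Std 3 was at 8.99, against 3.81 to 4.46 in the other Std pools. Csf2ra in the same pool was at 7.24, against 6.54 to 6.70. Socs3 in CDAA 1 was at 8.34, against 6.72 to 7.17 in the other CDAA pools, and Socs7 in CDAA 3 was at 4.50, against 4.83 to 4.89. Saa4 in Std 1 was at 4.48, against 3.70 to 3.88 in the other Std pools.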

How the results depend on the processing

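Scaling again by quantiles, centring on array medians and averaging probe sets changed no count of genes past the threshold by more than 1 and no family difference by more than its spread between pools. Replicate numbers were not taken to pair the pools, since the labels tie them to no shared batch and not all pairs moved together: departures from the diet mean correlated by 0.02 to 0.25 between same-numbered pools, over 0.1 in 3 of 5 pairs, although 6 of 10 pools correlated best with their own number, a hint of pairing from the data. With the replicate block, 10 response genes and 8 acute phase genes passed in place of 5 and 5, and the standard error of Socs3 was 0.17 in place of 0.41. Without CDAA 1 and CDAA 3, 2612 genes of all passed in place of 4106, with 2 inhibitors and 3 receptors outside the family, and the estimates of Socs3 (-0.11) and Stat3 (0.0076) changed sign without passing. With the hepatocyte mean as covariate, 3 receptors outside the family passed.

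With the pan-endothelial mean as covariate, which moves with the diet, 228 of all genes passed, 2 acute phase genes, 1 receptor outside the family, 0 other gp130 cytokines and receptors, 0 transducers, 0 inhibitors and 0 response genes. Family differences were then -1.54 (Cntfr), -0.44 (Lifr), -0.22 (Osmr) and, with their signs changed, -0.94 (Il6ra) and 0.049 (Il6st). Il21r (-0.31), Il13ra2 (0.12), Csf2ra (-0.19), Socs3 (-0.086) and Stat3 (0.046) also changed sign without passing. Centred on that mean, differences were -1.62 (Cntfr), -0.33 (Lifr), -0.019 (Osmr) and 0.11 (Il6st, sign changed). Il6ra was then at 0.77, opposite to its covariate estimate, Osm at 1.05 and Ctf1 at 1.22, and the markers' own difference of -0.75 is part of each centred value. The cause of these shifts was not tested.

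Leaving out 1 array, the counts ranged over 2956 to 4572 for all genes, 1 to 2 for other gp130 genes, 3 to 3 for transducers, 4 to 5 for inhibitors, 5 to 7 for response genes, 5 to 9 for acute phase genes and 2 to 8 for receptors outside the family. Family differences ranged over -2.49 to -2.23 (Cntfr), -1.21 to -0.97 (Lifr), -0.87 to -0.65 (Osmr), -0.78 to -0.49 (Il6st), -0.16 to 0.23 (Il6ra), -0.03 to 1.27 (Osm), 0.38 to 0.56 (Ctf1), 0.21 to 0.32 (Lif) and -0.15 to -0.02 (Il6). Socs3 ranged over -0.066 to 0.49 and Stat3 over -0.079 to 0.0010, with no pass. Neither the background correction of RMA nor detection calls could be varied, and signal near 3.5 limits Lif and Il6.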

Other observations

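Some genes of the related lists did not pass the test but had pools far from their group. Lcn2, the iron-binding lipocalin of neutrophils and injured epithelium, was at 9.66 to 10.49 in CDAA pools, at 5.20 to 6.69 in Std 1, Std 2, Std 4 and Std 5, and at 12.90 in Std 3. Il27ra, the interleukin-27 receptor subunit that pairs with gp130, was at 7.30 to 8.61 in CDAA pools and 8.47 to 8.68 in Std pools, a difference of -0.53 (limma adjusted p = 0.125). Ptpn6, a phosphatase of blood cells that limits cytokine receptors, was at 8.19 to 9.64 in CDAA pools and 7.16 to 8.70 in Std pools, a difference of 1.04 (limma adjusted p = 0.0516). These 3 genes were chosen after their values were seen.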
